A study of Mus musculus with 2 samples.

Results

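Transcript models that keep the 5′ end of a longer structure, annotated or new, but lack its last introns were examined in long-read RNA sequencing of mouse heart. Such a model is an incomplete splice match (ISM) of the Prefix kind: its introns are the first introns of a longer transcript, and none of the later ones is present. Members were chosen by the authors' class and count: Prefix models with a count of at least 2, where a count is 1 read assigned to a model. Replicate 1 held 546 members among 91308 models listed, and replicate 2 held 634 among 96944. Of these, 2 and 9 lay on genes that are not in the reference and were not placed, which left 544 and 625 members on 444 and 515 reference genes. The counts just at the threshold were the most common, with 260 and 312 models at 2 counts, and 1724 and 2077 Prefix models had a single count and stayed outside.

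The study holds 2 libraries of 1 group. Both were made from heart of male B6CASTF1/J mice, an F1 hybrid strain, at 14 days of age, with no treatment named, and started from 2 µg of total RNA with spike-in RNAs added. The labels call them biological replicates 1 and 2, yet both carry the same donor label and their descriptions name the same tissue sample and cDNAs. No condition was compared: each test below sets one library against the other, and its p-value rests on counting error alone. Since no molecular identifiers were counted, reads may be copies of 1 molecule.

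The depth was 1059016 counts on reference genes in replicate 1 against 1064679 in replicate 2. A single count was worth 0.944 and 0.939 CPM, the scale on which each library has the same total. The cardiac α-myosin heavy chain gene Myh6 had 22068 and 24632 counts, and the leukocyte gene Ptprc 0 and 9. The atrial hormone gene Nppa had 3757 and 889 counts, the T cell gene Cd8a 0 and 26, and the brown fat gene Ucp1 32 and 2. The libraries thus differed in an atrial gene and in marker genes of other cells or tissue. The part of this in the differences given below was not tested.

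Most messenger RNAs end where the nascent transcript is cut and given a poly(A) tail, a few bases after a hexamer such as AATAAA that the cleavage and polyadenylation complex binds. When a site inside an intron or an early exon is used, the transcript keeps its cap and first exons and loses the exons behind that site. Binding of the U1 small nuclear ribonucleoprotein at splice donors is known to hold back such early sites. A retained last intron also removes introns from the end of a chain, with the usual final poly(A) site still in use. In libraries primed on A runs, a stretch of A letters inside a transcript can act as a priming site.

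The letters around an end could be read from the GENCODE M21 transcripts (mm10) only where an annotated exon covers them, which holds for no end in an intron. Ends that lie inside an exon and off its boundaries are shown, because they are the most-counted of their kind with a signal hexamer before them and fewer than 10 A letters in the 20 bases after, or with 10 or more such A letters. Among the hexamer ends, those of A530016L24Rik and Zscan29 have only 3 counts. The first 4 windows run 30 bases up to and including the last base of the model, with the hexamer in capitals. They are Luc7l2 (chr6:38603847-38603876, plus strand), A530016L24Rik (chr12:112499085-112499114, plus strand), Zscan29 (chr2:121165645-121165674, minus strand) and Abhd10 (chr16:45731150-45731179, minus strand), all in a 3′ untranslated region (UTR).
Luc7l2: tcctttcATTAAAagcattgtttagctttg
A530016L24Rik: tgattgcaaAATAAAcagagggagacactg
Zscan29: agaatttttaaaataAATAAAtcatggctg
Abhd10: tgtctgaagcatAATAAAgttggaaaagtg
The other windows are the 20 bases after the end of a Son model (chr16:91654700-91654719, plus strand) and of a Myh6 model (chr14:54953301-54953320, minus strand), both in coding sequence, with each A in capitals.
Son: AAAAAgcAcAAAAAcAAAAA
Myh6: tggAAAAggAAAAgcAtgcA
Counted back from the last base as base 1, the marked hexamer began at base 23, 21, 15 and 18 in the order printed. The Zscan29 window holds a further AATAAA that overlaps the marked one and begins before it. A made up 16 of the 20 bases after the Son end and 10 after the Myh6 end. After the Zscan29 end A made up 9 of 20, just under the limit of 10.

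The Prefix members were a thin layer of the libraries. They held 3266 counts in replicate 1 and 2927 in replicate 2, which is 0.308% (95% exact Clopper-Pearson interval 0.298 to 0.319) and 0.275% (0.265 to 0.285) of the counts on reference genes, or 0.292% ± 0.0237 (SD, n = 2). The median member had 3 counts in both libraries, and 52 and 50 members had 10 or more. The mirror class, Suffix models, which lack the first introns and keep the last, had 6639 and 7058 models with 5.41% and 5.36% of the counts.

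No order is read from the 2 Prefix shares, because the same intron chain can be classed as Prefix in one library and otherwise in the other.

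The label of a kept 5′ end held for most members. The first base lay within 50 bases of an annotated transcript start in 518 of 544 members (95.2%) in replicate 1 and 603 of 625 (96.5%) in replicate 2, against 24.9% and 24.4% of Suffix models. The exceptions gathered among members that begin no annotated transcript and only a longer new model of the same library. There were 103 such members (18.9%) in replicate 1 and 133 (21.3%) in replicate 2, and 81 and 112 of them started within 50 bases of an annotated start. A Mast2 model with 10 counts in replicate 1 and 4 in replicate 2 did not. In replicate 1 it began 58.7% of the way along a gene that spans 157422 bases, 34261 bases from the nearest annotated start, and so kept the 5′ end of a new model. Mast2 encodes a microtubule-associated serine/threonine kinase.

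The ends of the members fell mainly on transcript ends that are already annotated. In replicate 1, 291 of 544 members (53.5%) ended within 50 bases of an annotated transcript end of their gene, 126 (23.2%) inside an exon and 119 (21.9%, interval 18.5 to 25.6) in an intron of every annotated transcript of the gene that spans the end. In replicate 2 the numbers were 370 of 625 (59.2%), 137 (21.9%) and 110 (17.6%, 14.7 to 20.8). The mean share in introns was 19.7% ± 3.02 (SD, n = 2). It was 11.9% for members with 5 or more counts and 9.85% with 10 or more, and was 31.4% against protein-coding transcripts alone and 41.2% against parents alone. The other 8 members of each library ended outside, 7 downstream and 1 upstream. Only exons of the same gene were used to place ends. Of the 119 and 110 intron ends, 6 and 7 lay in an exon of another gene on the same strand. Another 3 and 2 lay in an exon of a gene on the other strand.

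Ends in introns were rare in the other classes of new models. Suffix models ended in an intron in 5 and 4 cases (0.0753% and 0.0567%), models with new combinations of known splice sites (NIC) in 0.704% and 0.705%, and NNC models in 2.33% and 2.47%. A class that must lack the last introns has more room for such ends, so the contrast is given as a description.

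**Figure D1:**
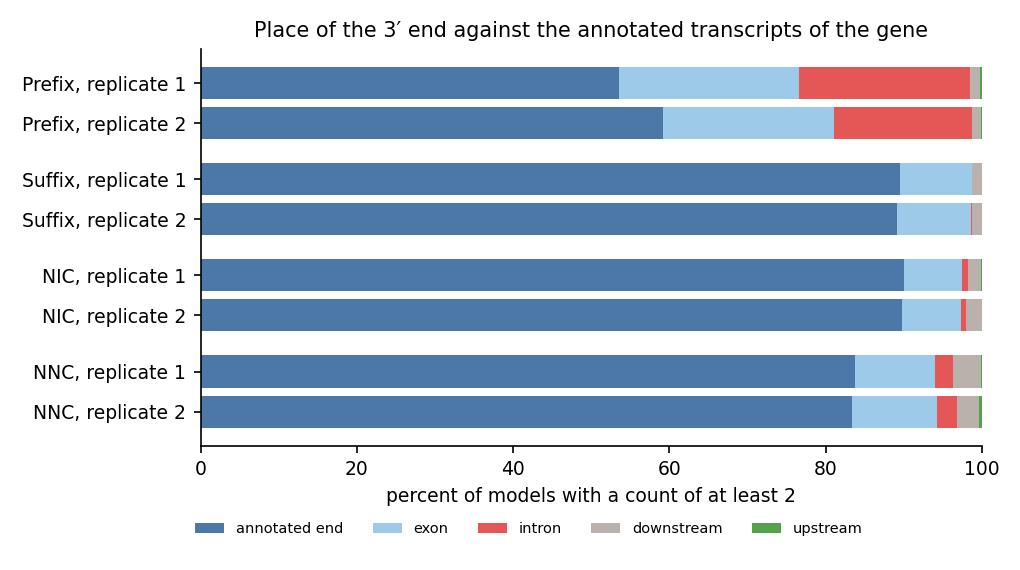
Place of the 3′ end of each model with a count of at least 2, as a percent of models (x axis), for 4 classes of new models in each library (bars). Prefix models ended in introns in 21.9% and 17.6% of cases, and Suffix models in under 0.1%.

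The deposited ends are not free positions. In 382 members (70.2%) of replicate 1 and 463 (74.1%) of replicate 2 the end sat exactly on an annotated exon boundary, only 12 and 21 lay 1 to 300 bases from one, and 150 and 141 lay further away. An end recorded on a boundary may therefore stand for reads that stop up to about 300 bases from it, and only ends off the boundaries carry a position of their own.

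The members that begin an annotated transcript, here called its parent, split into 3 kinds by the recorded end. Some stopped within the last exon they share with the parent, before or at its splice donor: 94 of 441 (21.3%) in replicate 1 and 110 of 492 (22.4%) in replicate 2. Of these, 61 and 67 were recorded on the donor itself, and their reads may have stopped in the intron. Others read through the donor and stopped in the intron behind it: 185 (42%) and 197 (40%). The rest read through at least 1 whole intron: 162 (36.7%) and 185 (37.6%). Among the rest, 14 and 11 were recorded on the start of the next exon, and their reads may have stopped short of it.

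Ends in the next intron divided between places that are annotated for the gene and places that are not. Of the 185 and 197 such members, 79 and 83 stopped at the annotated end of another transcript of the gene, 13 and 17 in an exon of another transcript, and 93 and 97 in sequence that no annotated exon of the gene covers. The annotated ends they used belonged to a protein-coding transcript in 37 and 41 cases and to a retained-intron transcript in 33 and 29. The 93 and 97 intron ends lay a median of 963 and 1033 bases past the donor (quartiles 548 to 1539 and 578 to 1821), and a median of 23.2% and 21.2% of the way into the intron. Few ends are recorded 1 to 300 bases from a boundary. Stops near the donor may therefore be missing from these distances, which would raise the medians.

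**Figure D2:**
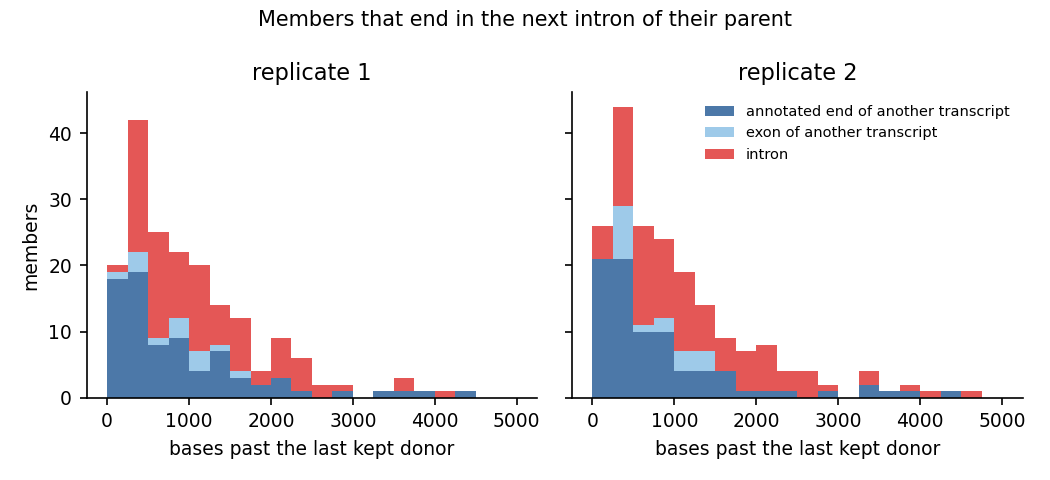
Bases between the last kept splice donor and the end (x axis) for members that stop in the next intron of their parent, stacked by the place of the end, with the number of members on the y axis. Ends in introns ranged from 65 to 4152 bases past the donor in replicate 1 and from 2 to 4721 in replicate 2. Few ends are recorded 1 to 300 bases from an exon boundary, so stops near the donor may be missing.

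Members that read through whole introns mostly ended at an annotated transcript end. Of the 162 and 185, 130 and 160 did so, 111 and 139 of them at the end of a protein-coding transcript, and 121 and 146 lacked only the last intron of the parent. A single whole intron was left unspliced in 146 and 162 of them, and 2 or more in 16 and 23.

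Members that read through a whole intron held the most coding sequence of the parent. Among members with a protein-coding parent, a median of 68.5% (n = 417 members) and 67.1% (n = 450) of the annotated coding bases lay in the spliced part. Coding shares use the fitting parent with the longest coding sequence, which can differ from the parent used for intron numbers. The median was 47.4% and 53.9% for ends before the donor, 56.7% and 53.6% for ends in the next intron, and 87.8% and 87.6% for those past it. The order of the first 2 kinds turned between the libraries, and no test of these medians was made. The whole coding sequence was kept in 27 and 30 members, and 19 and 22 of these had read through a whole intron.

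Members with an annotated parent kept a median of 6 introns in both libraries. Of these, 47.6% and 47.2% lacked 1 intron only, and 54 and 60 kept the first intron alone. Among the 93 and 97 that stopped in the parent's next intron, outside every annotated exon of the gene, 18 and 22 kept the first intron alone.

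A signal hexamer stood before most annotated ends that members used. The motifs searched were AATAAA and ATTAAA, on the transcript strand, in the last 50 bases of the model. At annotated ends 76.0% (218 of 287) and 75.1% (274 of 365) of members with sequence had one, against 84.5% and 85.1% of Suffix models that end there. Because ends are recorded on boundaries, these shares may describe the annotated ends rather than the places where reads stopped. In exons and off boundaries, 15 of 35 (42.9%, interval 26.3 to 60.6) and 17 of 43 (39.5%, 25 to 55.6) members had one, against 61.9% and 55.5% of Suffix models with such ends.

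At least 10 A letters in the 20 bases after the end, as in the Son and Myh6 windows above, were present in 11 of 34 (32.4%, 17.4 to 50.5) and 9 of 41 (22.0%, 10.6 to 37.6) of those exonic ends. The shares among Suffix models were 17.1% and 18.8%, the first just under the interval of the members in replicate 1 and the second inside that of replicate 2. Whether any of these ends comes from priming inside the transcript was not tested. Over all members the letters are known for too few ends, 72.6% and 77.1% before the end and 25% and 28.5% after it, so no share over all members is given.

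To ask whether a member recurs, chains were paired across libraries when chromosome, strand and all introns were identical. The 2 libraries together held 910 member chains in 716 genes, 694 of them protein-coding, and 604 genes had 1 chain only. Of these chains 551 (60.5%) had at least 1 count in both libraries, 147 only in replicate 1 and 212 only in replicate 2.

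Members with more counts were found again more often. Of the members of replicate 1, 397 of 544 (73.0%, interval 69.0 to 76.7) were found in replicate 2, and 413 of 625 (66.1%, 62.2 to 69.8) the other way. Members with 2 counts were found again in 55.8% and 50.8% of cases, and those with 10 or more in 52 of 52 and 50 of 50. Suffix models were found again in 76.8% and 74.8%.

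Intron-ending members were found again in 73 of 119 (61.3%, 52.0 to 70.1) and 59 of 110 (53.6%, 43.9 to 63.2). Members ending in an exon were found again in 62.7% and 63.5%, and those at annotated ends in 82.1% and 70.5%. The places were not matched for counts. Of the recurrent members of replicate 1, 16 were classed as NIC and 8 as NNC in replicate 2, and of those of replicate 2, 25 and 8 in replicate 1. All of these begin only new models.

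Where a chain was found in both libraries, the recorded end usually came back too. It differed by at most 20 bases in 448 of 551 shared chains (81.3%, 77.8 to 84.5) and was identical in 369. Recording on boundaries makes ends identical, so the chains with neither end on a boundary are the closer check: 85 of 119 (71.4%, 62.4 to 79.3) had ends within 20 bases, with a median difference of 3 bases. With both ends in an intron the number was 60 of 81 (74.1%, 63.1 to 83.2), and 31 of these were identical to the base. That set keeps only chains placed in an intron in both libraries, which favours agreement. Among chains with an end in an intron in either library, 61 of 105 (58.1%, 48.1 to 67.7) had ends within 20 bases. Of these 105 chains, 38 had ends over 200 bases apart. Free ends of Suffix models lay within 20 bases in 79.2% of chains, and those of NIC models in 66.6%.

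**Figure D3:**
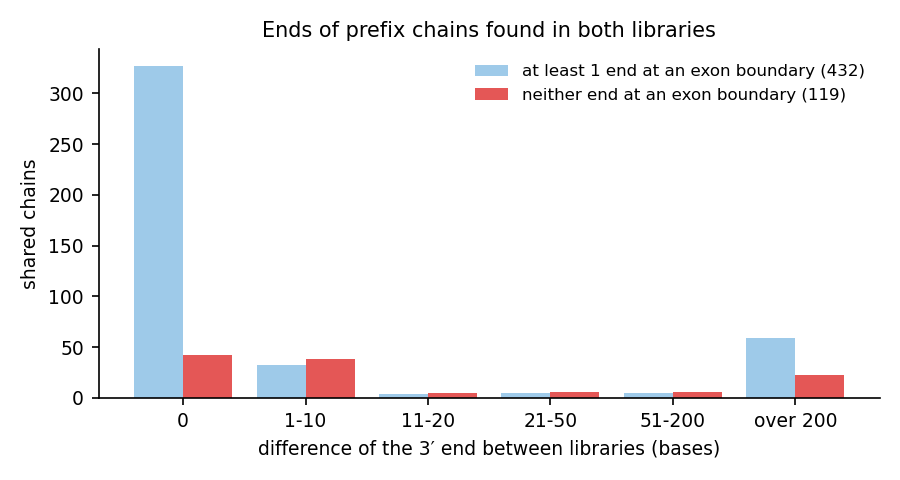
Difference of the 3′ end between the libraries (x axis, bases) for the 551 chains found in both, with the number of chains on the y axis. Of the 119 chains with neither end on an exon boundary, 42 had the same last base in both libraries and 22 differed by over 200 bases.

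The 60 recurrent intron-ending chains lay in 57 genes and were sparse, with 3 to 28 summed counts and a median of 4. The most-counted belonged to Fam120aos, a gene named for lying opposite Fam120a. It kept 1 of 2 introns and had 14 counts in each library, 82.4% and 93.3% of the 17 and 15 counts of the gene, and it ended at the same base, 618 bases past the donor. Whether the counting used strand is not given in the sources used here, so reads of overlapping antisense genes may not be separable.

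Rhot1, which encodes the mitochondrial transport GTPase Miro1, had 7 and 8 counts on a chain that kept 18 of 19 introns and 94.3% of the coding sequence. It ended at the same base in both libraries, 1507 bases into an intron of 8105. Ndufa10, a subunit of respiratory complex I, had 5 and 11 counts on a chain with 8 of 9 introns, whose ends lay 1 base apart and 2560 and 2559 bases past the donor. These reads were 0.318% and 0.685% of the counts of Ndufa10, against 5.7% and 5.6% for Rhot1.

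Clec16a had 5 and 6 counts on 14 of 22 introns with the same last base, which were 16.1% and 13.3% of the gene. Clybl, a mitochondrial lyase, had 6 and 5 counts and ends 10 bases apart. Ckmt2, the mitochondrial creatine kinase of striated muscle, had 6 and 3 counts on a chain that ended 65 bases past the donor in both libraries. Dhrs7 had 8 and 4 counts, Mast2 10 and 4, Sept4 2 and 7, and a Nexn chain 2 and 5. Of these 10 chains 7 had enough counts for the test between libraries given below, and the smallest adjusted exact p among them was 0.659.

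The most-counted shared chain of each of 19 genes shows what the larger members are. Suds3, a subunit of the Sin3 histone deacetylase complex, had 77 and 90 counts. Its chain is NNC in replicate 1 and Prefix in replicate 2, and it ended at the annotated 3′ UTR end.

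Caprin1, an RNA-binding protein of stress granules, had 34 and 41 counts on a chain with 17 of 18 introns that ended 1299 bases into the last one, at the annotated end of another transcript. That form made up 28.6% and 28.1% of the gene's counts and kept 97.1% of the coding sequence. Sik3, a salt-inducible kinase, had 32 and 26 counts on a chain with 13 of 23 introns that ended at the same annotated end 815 bases past the donor. It made up 66.7% and 63.4% of Sik3 counts. It kept 44.0% of the coding sequence of another fitting parent, the one with the longest. Slc25a23, a mitochondrial ATP-Mg/phosphate carrier, had 25 and 23 counts on 8 of 9 introns, ending 135 bases past the donor at an annotated end, 62.5% and 63.9% of the gene.

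Synpo, encoding the actin-associated protein synaptopodin, had 23 and 32 counts on 1 of 2 introns, 45.1% and 47.1% of its counts, also at an annotated end. In these genes the short form was a known transcript end reached with an intron chain that the annotation lists only for a longer transcript.

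Lrp6, a Wnt co-receptor, kept 1 of 22 introns and 9.28% of its coding sequence. The chain had 23 and 37 counts out of 35 and 43 for the gene, 65.7% and 86.0%. The recorded ends were 811 bases apart, at an annotated non-coding end 878 bases past the donor in replicate 1 and in the intron 1689 bases past it in replicate 2. Mccc1, a subunit of methylcrotonyl-CoA carboxylase, showed the same split, with 16 and 19 counts and ends 694 and 1067 bases past the donor, annotated in replicate 1 and intronic in replicate 2. Zfp970, a zinc finger gene, had 58 and 45 counts and ends 587 bases apart, in an intron in replicate 1 and in an exon in replicate 2. Zinc finger genes of this kind have close copies, so their counts are uncertain.

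Other large members kept the last exon. Myl3, the ventricular essential myosin light chain, had 33 and 38 counts with its last intron unspliced, 0.392% and 0.467% of 8426 and 8144 counts, and kept all of its coding sequence. Mbd3, a methyl-CpG-binding domain protein of the NuRD complex, had 26 and 32 counts of the same form, 19.7% and 21.5% of the gene. Kank3 had 24 and 30 counts with the last of 10 introns unspliced, 6.78% and 8.33% of the gene.

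Several of the 19 chains stopped elsewhere. Psmd1, a regulatory subunit of the proteasome, had 20 and 32 counts on 21 of 24 introns and ended at an annotated end in coding sequence, 12.3% and 17.1% of the gene. Ccnl2, encoding cyclin L2, had 27 and 29 counts on 5 of 10 introns, with ends in an exon 99 and 1307 bases before its donor. Rbmx, an RNA-binding protein of the spliceosome, had 28 and 22 counts, 65.1% and 46.8% of the gene, on a chain that begins only new models.

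The chains of Dus1l (26 and 29 counts), Ehbp1l1 (24 and 45) and Nexn (31 and 42) also begin only new models and ended at annotated 3′ UTR ends. The Ehbp1l1 chain is NIC in replicate 2, and the Nexn chain is NIC in replicate 1.

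Son, an RNA-binding protein of nuclear speckles, differed from these. Its chain kept 2 of the 4 introns of its shortest fitting parent, had 28 and 17 counts, 65.1% and 56.7% of the gene, and stopped at the same base in both libraries inside coding sequence, 5881 bases before the donor of that exon. It kept 4.48% of the coding sequence of another fitting parent, the one with the longest. The 20 bases after the Son end are those printed above, without AATAAA or ATTAAA in the bases before that end.

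**Figure D4:**
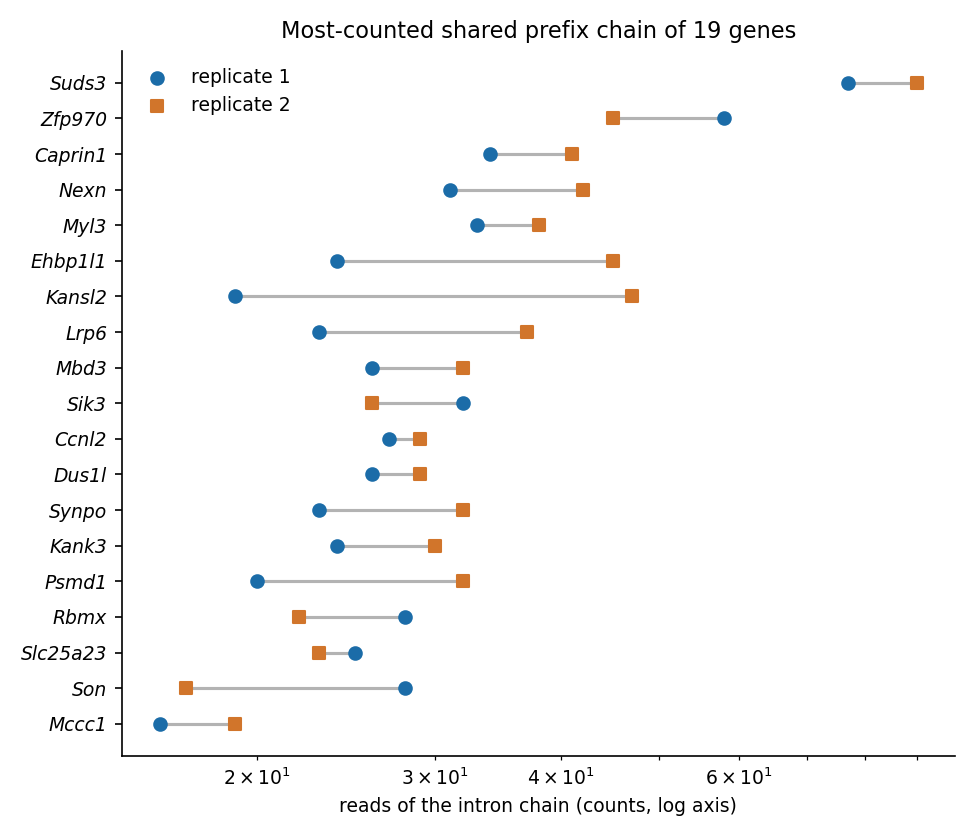
Counts (x axis, log scale) of the most-counted shared prefix chain of each of 19 genes in replicate 1 (circles) and replicate 2 (squares). The counts lie between 16 and 90, with Suds3 highest among the genes shown.

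Among 40 sarcomere genes, 12 had member chains, 44 chains in all. Only 7 of these had enough counts for the test between the libraries given below, and 0 passed, where 2% of all chains tested did. Myh6 alone had 23 chains with 44 and 53 counts, 0.199% and 0.215% of its own counts. Of the Myh6 chains found in each library, 15 of 18 and 16 of 19 ended inside an exon, and the highest, with 9 counts in both libraries, ended 32 bases apart in coding sequence.

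Nebl, which encodes the Z-disc protein nebulette, had 7 chains with 29 and 40 counts, 33.7% and 41.7% of the gene. Nexn, encoding the Z-disc protein nexilin, had 8 chains with 99 and 173 counts, 21.1% and 29.8% of the gene, and 5 of those found in each library ended at annotated ends. The Nexn chains that differ between the libraries, named below, began only new models and started 749 and 752 bases from the nearest annotated start.

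Of 29 calcium-handling genes, 10 had member chains, 21 in all with 58 and 80 counts, or 0.329% and 0.426% of the counts of the list. Over all reference genes the member chains held 0.342% and 0.379%. The list lay below that in replicate 1 and above it in replicate 2, and the difference was not tested. The overall share rests much on the few chains with many counts. Ryr2, the calcium release channel of the sarcoplasmic reticulum, had 4 chains with 23 and 25 counts, 28.4% and 32.9% of the 81 and 76 counts of the gene. Its largest chain, 13 and 14 counts, kept 21 introns of a new model and ended in an intron 163 bases apart in the 2 libraries. Trdn, which encodes triadin, a partner of that channel, had 5 chains with 18 and 24 counts, the largest ending 4 bases apart at an annotated 3′ UTR end. Atp2a2, the calcium pump, had 9 and 15 counts among 6410 and 7906.

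The other lists held few members. There were 7 chains in 6 of 23 fatty acid oxidation genes, 5 in 3 of 36 extracellular matrix genes, 6 in 5 of 40 oxidative phosphorylation genes and 3 in 3 of 28 genes for cleavage and polyadenylation factors. Their shares of list counts ran from 0.0124% to 0.308%. Among 11 genes known from the literature for intronic polyadenylation, 10 were detected and 2 had a member: Pdgfra and Rbbp6, each with 2 counts in replicate 1 and 0 in replicate 2. The Pdgfra model ended in an exon and the Rbbp6 model at an annotated transcript end. No chain of this list was placed in an intron. In replicate 2 there were 0 counts of 19 and 27. An approximate upper limit, 3 divided by the counts of the gene, is 15.8% for Pdgfra and 11.1% for Rbbp6. It is not an exact interval. A difference was not detectable at this depth.

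Between the libraries few member chains differed. Chains with 10 or more counts over both libraries were compared by a two-sided exact binomial test against the library totals, adjusted by the Benjamini-Hochberg method over all 12858 chains tested, with a threshold of 0.05. Over all of these, 257 chains (2%) passed, 1.08% higher in replicate 1 and 0.918% higher in replicate 2. Of the 910 member chains 128 could be tested. None passed as higher in replicate 1 and 3 as higher in replicate 2, and 13 (10.2%) had an unadjusted p under 0.05, against 9.85% of all chains. The median log2 ratio of replicate 2 to replicate 1 was 0.09 for member chains and 0.07 for all.

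The 3 chains were a Nexn chain with 13 and 41 counts (log2 ratio 1.57, adjusted exact p = 0.0128), another Nexn chain with 19 and 49 (1.31, adjusted exact p = 0.0227) and the Kansl2 chain with 19 and 47 (1.25, adjusted exact p = 0.0418). Kansl2 is a subunit of the NSL histone acetyltransferase complex, and its chain kept 6 of 9 introns and ended on the start of the next exon. All 3 calls were lost with edgeR's exact test under an estimated common dispersion, where the smallest adjusted p of a member chain was 0.668. Over all chains 12 passed there, against 257 in the binomial test. The dispersion was estimated from the same 2 libraries, so the difference under test enters it. The loss of the calls is therefore no independent check.

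Per gene the prefix share did not separate the libraries. The member counts of a gene as a share of all its counts were compared by Fisher's exact test in the 500 genes that hold a member chain and have at least 20 counts in each library, and 0 passed (0%), with 13 at an unadjusted p under 0.05. The smallest adjusted p, by Fisher's exact test with Benjamini-Hochberg adjustment, was 0.356, for Kansl2 (9.05% and 20.1%) and Nexn. When a chain was counted only in a library that named it Prefix, 7 genes passed. Suds3, whose chain carries another class in 1 library, was among them.

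In most of the 500 genes tested, all of which hold a member chain, these chains were a small part of the output. The median share was 2.08% and 2.11%, and 89 genes lay under 1% in both libraries. The share exceeded 10% in both libraries in 50 genes and 50% in 8, among them Suds3, Lrp6, Sik3, Slc25a23, Son, Dus1l (66.2% and 75.9%) and 2610005L07Rik (63.0% and 62.8%). The chains of Suds3 and Dus1l begin only new models and are not short against the annotation. The Suds3 model of replicate 2 spans 24319 of the 24434 bases of the gene. The Dus1l members keep 13 introns, as many as the annotated transcript with the most.

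**Figure D5:**
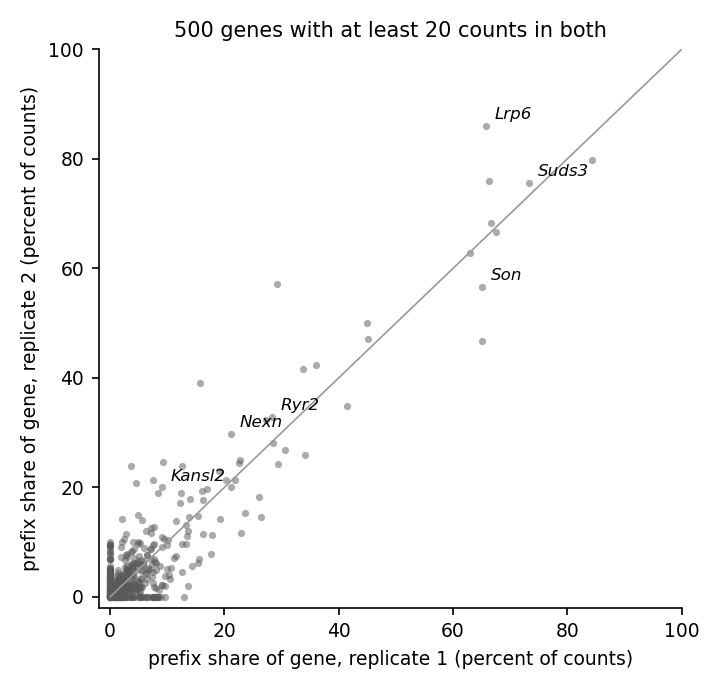
Counts on member chains as a percent of all counts of the gene, in replicate 1 (x axis) and replicate 2 (y axis), for 500 genes with a member chain and at least 20 counts in each library; the line marks equal shares. Most genes lie near 0 in both libraries, and Suds3 (73.3% and 75.6%) and Lrp6 (65.7% and 86.0%) are among the highest.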

How the data were processed

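Long-read RNA sequencing of heart gave 2 libraries of 1 group. Per the file headers, the authors deposited raw counts, 1 whole number for each model. The deposited annotation holds GENCODE M21 genes on mm10, per the file headers, and the novelty classes are the authors'. Which aligner, model filters and strand setting were used is not given in the sources used here. Of 141862 annotated transcripts in it, 141767 had the same position in the GENCODE M21 reference.

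Counts on reference genes set the scale (CPM). Ends were placed against all annotated transcripts of the gene, with 50 bases allowed at an annotated end. A member with several parents was placed by the one it overlaps best: before the donor, then in the next intron, then past it. Sequence came from GENCODE M21 transcripts. The binomial and Fisher's exact tests were run with scipy 1.17.1 in Python 3.11.15 and tested on simulated data. edgeR was run as an alternative on the counts. Log2 ratios are of CPM with a pseudocount of 1. A floor of 3 counts is 2.83 and 2.82 CPM. Intervals cover counting error only.

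The members and gene lists were chosen with earlier results of these data known. Chains were named by fixed rules: the top chain of the 20 genes with the highest summed count in both libraries, the 10 genes with the most-counted recurrent intron-ending chains, chains and genes past or nearest the threshold, and up to 4 genes per list. An item that these rules select is not reported here. Alternatives included other count minimums, windows, parent sets and library scalings, and leaving out each library.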

Additional observations from a re-analysis of the deposited data

How the results depend on the processing

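No paired analysis was possible because the 2 libraries form 1 group. The share of counts was 0.47% with single counts included, 0.186% and 0.137% with minimums of 5 and 10 counts and 0.414% with models called Both included. The share of ends in introns was 24.8%, 11.9% and 9.85% with minimums of 1, 5 and 10, 31.4% against protein-coding transcripts only, 41.2% against parents only and 13.0% by counts. The share at annotated ends was 46.0%, 68.9% and 71.5% with those minimums and 68.0% by counts. Recurrence was 48.9% with 2 counts in both libraries, 97.4% from 5 counts, 58.2% with ends within 50 bases and 64.3% when Prefix in both. Ends within 20 bases were 71.4% of chains off boundaries, an alternative chosen after seeing the data. The 3 chain calls became 0 without a count minimum, where 155 of 112056 chains passed over all, and 0 with edgeR, where 12 did. The 0 gene calls became 7 with classes as named in each library, also chosen after seeing the data. The share of exonic ends with a signal was 27.9% from 5 counts, 31.4% with AATAAA alone and 52.1% in 100 bases. The share followed by A-rich sequence was 39.6% from 5 counts, and 13.2% with 14 of 20 or with a run of 6 A. A minimum of 10 leaves 1 and 4 such ends and was not run, and the shares over all members were not run because no letters were at hand for ends in introns. Leaving out a library leaves the other library's value and is no check of stability with 2 libraries.

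At a median of 3 counts a member missing from 1 library cannot be told from one not sampled. The place of an end on a boundary is known only to about 300 bases.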
